A study of Mus musculus with 15 samples.

Results

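Vascular endothelial cells line the blood vessels that run through the cerebellum and through medulloblastoma. A Drop-seq barcode, the tag that stands for one captured cell, was counted as endothelial when it held at least 500 UMIs (unique molecular identifiers, each marking one captured mRNA) and at least 500 genes, had a UMI in at least 3 of the 7 endothelial genes Pecam1, Cldn5, Flt1, Kdr, Esam, Egfl7 and Ramp2, and had a UMI in at most 1 of the 4 fibroblast genes Col3a1, Dcn, Lum and Col1a1. By this rule 189 of the 38351 barcodes that passed both minimums were endothelial, or 0.493%. They comprised 60 cells in WT cerebellum, 62 in vehicle-treated tumors and 67 in vismodegib-treated tumors.

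The study profiled single cells from 15 mice, 5 in each group, to ask how SHH-driven medulloblastoma responds to blocking of the SHH pathway. WT cerebella came from untreated C57BL/6 mice at day 7. Tumors came from Math1-Cre:SmoM2/EYFPloxP/loxP mice on the C57BL/6 strain at day 15, after 3 daily doses of either vehicle or vismodegib at 75 mg per kg. In these mice both tumor groups carry Cre under the Atoh1 (Math1) promoter, which switches on SmoM2, an active form of the SHH signal transducer Smoothened, in the cerebellar granule cell lineage and not by design in vessels. Vismodegib is a Smoothened inhibitor given to the whole animal. The WT and tumor groups differed in genotype, in age and in the device used to capture the cells, so these cannot be told apart in any comparison of WT with tumor, and human cells were added to the tumor samples before capture.

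Endothelial cells of the brain differ from those of other organs. They are joined by tight junctions, take up little fluid by vesicles, and carry transporters that let glucose, amino acids, iron and thyroid hormone through the blood-brain barrier, a state that Wnt signaling maintains. New vessels grow from tip cells that follow VEGF (vascular endothelial growth factor), under restraint by Notch signaling, while apelin and its receptor act in sprouting vessels.

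Cells of one animal are not independent, so counts were summed over the endothelial cells of each animal. Animals with fewer than 10 such cells were pooled with each other within the group, WT 3 with WT 5 and Vehicle 3 with Vehicle 4. WT 4 and Vehicle 5, with 23 and 25 cells, stood alone. This gave 4 units for WT (animals 1, 2, 4 and the pool), 4 for vehicle (animals 1, 2, 5 and the pool) and 5 for vismodegib (animals 1 to 5), and unit values are listed below in this order. Levels are given in CPM, in which the counts of each unit are scaled so that all units have the same sum. The 189 cells held 877823 UMIs, and a unit held 16903 to 178461 UMIs. A single UMI was worth 4.21 CPM in the WT cells together, 4.94 CPM in the vehicle cells and 2.28 CPM in the vismodegib cells.

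The cells were chosen by their own UMIs of the genes of the rule, so the values of these genes are a description. Cldn5, the claudin that seals endothelial tight junctions, had a UMI in 86.8% of the endothelial cells. Egfl7, a secreted endothelial protein, and Ramp2, a partner of the adrenomedullin receptor, each had one in 85.7%. Esam, an adhesion molecule, was seen in 83.6%, and the VEGF receptors Flt1 and Kdr in 82.0% and 75.1%. Pecam1, the platelet endothelial adhesion molecule, was seen in 52.4%, against 0.120% to 0.274% of the remaining barcodes of the 3 groups. Ramp2 was the least specific of these genes, since 3.10% to 11.8% of the remaining barcodes held it. The median depth was 1944.5 to 2632 UMIs in the endothelial cells of the 3 groups and 1364 to 1711 UMIs in the remaining barcodes.

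Genes outside the rule gave the same label. Of 29 pan-endothelial genes that the rule does not hold, 186 of the 189 cells had at least 3, with a median of 15. By pooled CPM the genes that stood furthest above the remaining barcodes in all 3 groups, by the lowest of the 3 ratios, included the vasoconstrictor gene Edn1 (274-fold), the Ly6-family surface antigen Ly6c1 (254-fold), the leukocyte adhesion molecule Icam2 (251-fold), the thyroid hormone transporter Slco1c1 (197-fold), the transcription factor Sox17 (181-fold), the angiopoietin receptor Tek (175-fold) and the amino acid transporter Slc38a5 (166-fold). Of the listed markers of lymphatic endothelium, Lyve1 had 0 UMIs in all 189 cells. That value covers Lyve1 only. The values of the other listed markers, Prox1 and Pdpn, are not reported here, so the lymphatic list does not bear on the label. Of the cells, 61 held all 7 rule genes and 23 held exactly 3. The 23 cells just inside the threshold had a median of 1038 UMIs and 7 pan-endothelial genes, and the 131 barcodes just outside it, with 2 rule genes and no more than 1 fibroblast gene, had a median of 0 pan-endothelial genes. At least 3 pan-endothelial genes were also held by 345 of the remaining barcodes, 72 in WT, 122 in vehicle and 151 in vismodegib, so the comparison with the remaining cells below contains some endothelial mRNA.

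Markers of mural cells, which wrap the same vessels, were present in some of the cells. At least 3 pericyte markers were held by 22 WT, 10 vehicle and 7 vismodegib cells. The summed pericyte list ranged from 2317 to 5581 CPM in WT units, 2121 to 3069 CPM in vehicle units and 149 to 3372 CPM in vismodegib units. Without the very large barcodes described next the ranges were 855 to 3069 CPM in vehicle and 199.7 to 3372 CPM in vismodegib. Of its 7 tested genes 0 passed the test in either comparison, where 3.43% and 0% of all genes did. The fitted change was above 0 for 0 of the 7 in both, against 2249 and 2384 of all 4490 tested genes. Its median was -1.05 between vehicle and WT and -1.27 between vismodegib and vehicle. Without the very large barcodes 0 and 2 of the 7 lay above 0, with medians of -1.09 and -0.51. Col3a1, the one fibroblast gene often present, had a UMI in 25 of the 189 cells, and Lum had none.

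A few barcodes were far larger than the rest and decided some unit sums. The endothelial cells held between 671 and 131101 UMIs. The largest barcode gave 78.4% of the UMIs of Vismodegib 3 and held 3 of the 7 rule genes, with 0 UMIs of Pecam1, Cldn5 and Flt1 and 4 of Kdr. It held 7 of the 29 pan-endothelial genes, but also 7 astrocyte, 5 microglia and 6 granule cell lineage markers. It also held 7377 UMIs of Ttr, the transthyretin gene of the choroid plexus. Its endothelial label is uncertain, but it met the rule and stayed in the main values. A barcode of 40482 UMIs gave 58.1% of Vehicle 2, with all 7 rule genes, all 29 pan-endothelial genes and 8 pericyte markers. A barcode of 24223 UMIs gave 53.8% of Vismodegib 2, again with all 7 rule genes. Libraries shared at most 13 barcode sequences in any of the 105 pairs, and 0 were shared among the endothelial cells.

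The endothelial share was lower in vehicle-treated tumors than in WT cerebellum. It was 0.571%, 1.09%, 0.627%, 1.08% and 0.613% of barcodes in WT animals 1 to 5, with a mean of 0.795% ± 0.263 (SD, n = 5). In vehicle animals 1 to 5 it was 0.395%, 0.309%, 0.481%, 0.285% and 0.306%, with a mean of 0.355% ± 0.0822 (SD, n = 5). The groups did not overlap, and the difference of -0.440 percentage points had p = 0.00794 (exact permutation test, two-sided), the smallest p that 5 against 5 animals can give. With each cell thinned to 500 UMIs before the rule was applied, the shares were 0.513% and 0.230% and the difference was -0.283 percentage points with the same p. A share falls when other cells are more numerous or when fewer endothelial cells are captured, and these cannot be told apart.

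In vismodegib-treated tumors the share varied most between animals. It was 0.580%, 0.467%, 1.31%, 0.262% and 0.719% in animals 1 to 5, with a mean of 0.668% ± 0.397 (SD, n = 5). The difference from vehicle was 0.313 percentage points (exact permutation p = 0.0952, two-sided), within the spread between animals. With each cell thinned to 500 UMIs it was 0.148 percentage points (exact permutation p = 0.0714), Vismodegib 3 then standing at 0.477%, and with 2 rule genes as the minimum it was 0.134 percentage points (exact permutation p = 0.627). Without Vismodegib 3 it was 0.152 percentage points (exact permutation p = 0.190), and without Vismodegib 4 it was 0.414 percentage points (exact permutation p = 0.0317). Both comparisons use the same 5 vehicle animals.

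**Figure D1:**
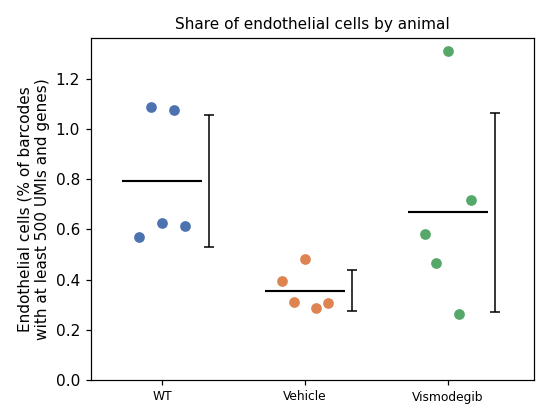
Share of endothelial cells (percent of barcodes with at least 500 UMIs and 500 genes) in each of the 15 animals, with the group mean as a line and the SD as a bar. All 5 vehicle points lie between 0.285% and 0.481%, below every WT point, and the vismodegib points spread from 0.262% to 1.31%.

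The first expression question was how the endothelium of vehicle-treated tumors differed from that of the P7 cerebellum. Genes that were higher in the tumor endothelium included the transporters Slco1a4 and Slc2a1, the surface antigens Ly6c1 and Ly6a, the co-receptor Nrp1 and the Notch receptor Notch4, and ribosomal protein and haemoglobin genes were among those that were lower. Of 4490 genes tested, 154 passed an adjusted p of 0.05 (edgeR quasi-likelihood test, Benjamini-Hochberg), which is 3.43% of genes, with 34 higher (0.757%) and 120 lower (2.67%). DESeq2 called 135. Without the 3 very large barcodes 249 of 3833 tested genes were called, 84 higher (2.19%) and 165 lower (4.30%). Leaving out WT 4 gave 63 calls, Vehicle 5 77, Vehicle 1 92, the WT pool 66 and the vehicle pool 88, where a pool was left out whole because either of its animals alone had under 10 cells. The groups did not overlap for 11.5% of all tested genes, 6.35% higher and 5.17% lower in vehicle. The sums cannot tell fewer cells that express a gene from less mRNA per cell.

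The rise with the lowest adjusted p was that of Slco1a4, an organic anion transporter of the blood-brain barrier, which lies on the minus strand at chr6:141805440-141856199 (mm10, GENCODE annotation). Its levels were 13.5, 47.1, 0 and 0 CPM in the WT units, 345, 775, 1002 and 491 CPM in the vehicle units, and 1124, 932, 311, 1598 and 1502 CPM in the vismodegib units. Every tumor unit lay above every WT unit, and Vismodegib 3 stood at 857 CPM without its largest barcode. WT endothelial cells held only 3 UMIs of Slco1a4 and vehicle cells 153, a ratio of pooled CPM of 59.8 (exact 95% interval 20.1 to 293, for counting error only, as for the ratios below). The fitted change was 5.36 on the log2 scale (SE 0.70, adjusted p = 5.26e-05), and it passed the test under all 19 settings that were tried. Of the cells, 3.33% held a UMI in WT, 51.6% in vehicle and 74.6% in vismodegib, against 0.196% to 0.739% of the remaining barcodes. With every cell thinned to 500 UMIs, 0 of 60 WT cells, 10 of 62 vehicle cells and 27 of 67 vismodegib cells kept one.

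The RefSeq promoter of Slco1a4 is shown because no other higher gene had so low an adjusted p. The 250 bases upstream of its start lie at chr6:141856221-141856470 (GRCm38.p6, minus strand), with capitals marking a match to AGGAAG or its reverse complement CTTCCT, the core bound by ETS factors such as the endothelial regulator Erg. Such a match was found in 29.5% of all 32851 promoter windows of this length and in 11 of the 33 windows of the 23 higher genes that had a RefSeq promoter. It is a match of letters and no evidence of binding.
Slco1a4: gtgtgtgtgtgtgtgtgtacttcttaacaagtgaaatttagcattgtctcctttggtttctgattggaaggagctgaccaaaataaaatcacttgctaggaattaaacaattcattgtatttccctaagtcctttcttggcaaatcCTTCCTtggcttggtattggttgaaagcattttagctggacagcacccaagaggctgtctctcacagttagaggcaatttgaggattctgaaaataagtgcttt

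Of the other genes of barrier transport, Slc2a1 alone passed the test. Slc2a1, the glucose transporter of brain endothelium, was at 339, 165, 213 and 86.6 CPM in WT units and at 1579, 732, 1044 and 589 CPM in vehicle units, so the groups did not overlap. Its fitted change was 2.00 (log2, SE 0.45, adjusted p = 0.0106), a call lost under 1 of 19 settings. Slco1c1, the thyroid hormone transporter, was at 1151, 1036, 1039 and 541 CPM in WT and 2023, 2654, 2199 and 2479.9 CPM in vehicle. The groups again did not overlap, but the fitted change of 1.12 (SE 0.39) had an adjusted p of 0.131. Tfrc, the transferrin receptor that brings in iron, had a fitted change of 1.56 with an adjusted p of 0.0884. Of the 22 transport genes tested, Slco1a4 and Slc2a1 passed, both higher, where 0.757% of all genes were called higher, and the other 20 did not pass. The median fitted change of the list was 0.50 against 0.00 over all genes. Without the 3 very large barcodes 6 of 22 passed, all higher, where 2.19% of all genes did. The tight junction list had 0 of 10 tested genes past the threshold, with a median of 0.20, and the list of Wnt and barrier maintenance genes had 0 of 17 with a median of 0.15. Where 3.43% of all genes passed in either direction, 0 of 10 or 0 of 17 says little about lists this short.

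The surface antigens Ly6c1 and Ly6a were higher in tumors. The summed pan-endothelial list was at 8645 to 12043 CPM in WT units and 20357 to 32661 CPM in vehicle units, but 4 of its 29 genes passed, all higher (Ly6c1, Ly6a, Ctla2a and Igfbp7), and 20 of 29 had a fitted change above 0, where 0.757% of all genes passed as higher and 2249 of 4490 lay above 0. When the 3 very large barcodes were left out, 10 of 29 passed, all higher, against 2.19% of all genes. In vismodegib units it was at 4938 to 27759 CPM, and at 20540.2 to 27759 CPM without the 3 very large barcodes, Vismodegib 3 having been the lowest. Ly6c1 was at 555, 612, 93.2 and 65.0 CPM in WT units and 1381, 1779, 3409 and 1129 CPM in vehicle units, a fitted change of 2.40 (SE 0.61, adjusted p = 0.0205). Ly6a, the Sca-1 antigen, was at 94.8, 118, 40.0 and 21.7 CPM in WT and 543, 359, 821 and 123 CPM in vehicle, a fitted change of 2.57 (SE 0.66, adjusted p = 0.023). The call was lost under 3 of 19 settings for Ly6c1 and under 5 for Ly6a. Without its very large barcode Vehicle 2 stood at 2737 CPM for Ly6c1 and at 171 CPM for Ly6a. Neither gene overlapped between the groups, although the lowest vehicle unit of Ly6a was close to the highest WT unit. Both belong to a family of similar genes on chromosome 15, among which 3′ reads can be hard to assign. Ctla2a, a cysteine protease inhibitor, was at 1151, 989, 839 and 1429 CPM in WT and 12087, 2525, 3131 and 2701 CPM in vehicle, where Vehicle 1 stood far above the others. Its fitted change was 1.94 (SE 0.53, adjusted p = 0.0332), the call was lost under 5 of 19 settings, and it overlaps unnamed gene models in the annotation. Without Vehicle 1 the fitted change was 1.23 (adjusted p = 0.254).

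The co-receptor Nrp1, the insulin receptor gene Insr and 2 genes for proteins that bind insulin-like growth factors were also among the higher genes. Nrp1, a co-receptor for VEGF and semaphorins, was at 271, 306, 133 and 195 CPM in WT units and 1233, 961, 709.7 and 2283 CPM in vehicle units, a fitted change of 2.33 (SE 0.51, adjusted p = 0.00734), a call lost under 1 of 19 settings, with Vehicle 2 at 1471 CPM without its very large barcode. Insr, the insulin receptor, was at 54.2, 23.6, 40.0 and 43.3 CPM in WT and 345, 158, 167 and 319 CPM in vehicle (fitted change 2.22, adjusted p = 0.0229), a call lost under 6 of 19 settings with an adjusted p of up to 0.0917. The related Igf1r rose by a fitted 2.17 (adjusted p = 0.0332). Among proteins that bind insulin-like growth factors, Igfbp7 was at 2398, 1389.8, 1665 and 1148 CPM in WT and 5969.7, 5208, 4871 and 7415 CPM in vehicle. The Igfbp7 groups did not overlap and the fitted change was 1.62 (SE 0.44, adjusted p = 0.0332), but the call was lost under 9 of 19 settings. Igfbp3 had the larger fitted change of 4.18 (SE 1.00, adjusted p = 0.0161), from 13.5, 118, 0 and 0 CPM to 1579, 100.4, 821 and 98.2 CPM, and its groups overlapped because WT 2 lay above the lower vehicle units. That call was lost under 5 of 19 settings.

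Notch4, the Notch receptor found mainly in endothelium, was also higher. It was at 13.5, 0, 26.6 and 0 CPM in WT units and 197, 158, 83.5 and 393 CPM in vehicle units, with no overlap. WT cells held 3 UMIs and vehicle cells 37, a pooled ratio of 14.5 (exact 95% interval 4.58 to 73.3), and the fitted change was 3.63 (SE 0.83, adjusted p = 0.0114, lost under 1 of 18 settings). It was the only one of 8 tested Notch genes past the threshold, where 3.43% of all genes passed in either direction. The list had a median of 1.71. In the list of tip cell and sprouting genes, 1 of 16 tested genes passed, and 16 of 16 had a fitted change above 0, with a median of 1.15, where 2249 of all 4490 genes lay above 0 and 0.757% were called higher. With the 3 very large barcodes left out, 15 of the sprouting genes were tested, of which 3 passed and all lay above 0. Of all 3833 genes tested in that way 2.19% were called higher and 1942 lay above 0. In the list of VEGF and angiopoietin receptors, 1 of 9 passed, Nrp1, and the median was -0.55, with 2 of 9 passing without those barcodes. The basement membrane list, collagens, laminins and nidogens of the vessel wall, had 0 of 17 past the threshold while 17 of 17 lay above 0, with a median of 0.56, and without those barcodes 14 of 16 tested lay above 0 and 1 passed. It shares Col4a1, Col4a2, Lamb1 and Nid2 with the sprouting list, so these lists are not separate observations.

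**Figure D2:**
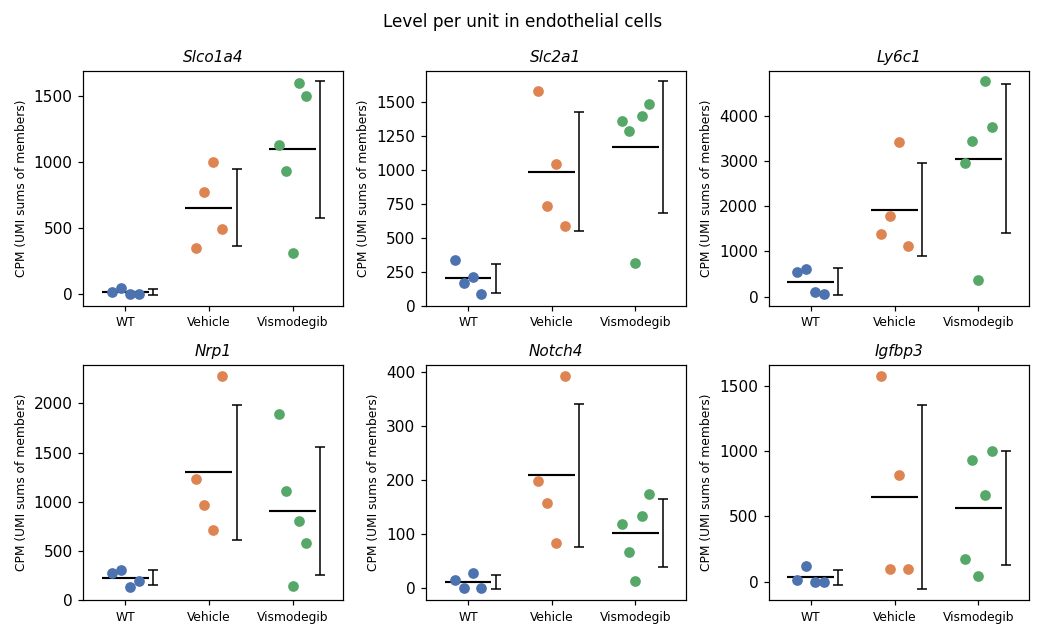
Level (CPM of the summed UMIs) of 6 genes in each unit of endothelial cells, 4 WT, 4 vehicle and 5 vismodegib, with the group mean as a line and the SD as a bar. Every vehicle unit lies above every WT unit except for Igfbp3, and Vismodegib 3 is the lowest vismodegib unit for each gene, while without the very large barcodes Vismodegib 2 is lower than it for Slc2a1, Ly6c1 and Igfbp3.

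Several further risers act at the cell surface or in the wall of the vessel. Clec1a, a C-type lectin of endothelium, was at 54.2, 0, 13.3 and 0 CPM in WT units and 493, 273, 153 and 319 CPM in vehicle units (fitted change 3.51, SE 0.69, adjusted p = 0.00366). Timp3, an inhibitor of matrix metalloproteinases, was at 81.3, 118, 79.9 and 21.7 CPM in WT and 691, 258, 417 and 147 CPM in vehicle (fitted change 2.01, SE 0.49, adjusted p = 0.0176), a call lost under 6 of 19 settings. Cyr61, a matrix-associated growth regulator, was at 54.2, 165, 26.6 and 43.3 CPM in WT and 197, 258, 543 and 319 CPM in vehicle (fitted change 2.18, adjusted p = 0.0405), a call lost under 9 of 19 settings. None of these overlapped between the groups, but without its very large barcode Vehicle 2 stood at 137 CPM for Cyr61, below WT 2. Inside the cell, Sgms1, a sphingomyelin synthase, had a fitted change of 2.36 (adjusted p = 0.0141), and Rgs12, a regulator of G protein signaling, had one of 2.06 (adjusted p = 0.0128), calls lost under 3 and 4 of 19 settings.

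Some other genes that passed the test, like Igf1r above, lie outside the rule for named genes and were picked after their values were seen. Ackr3, a scavenging receptor for the chemokine CXCL12, had 0 UMIs in WT endothelial cells and 29 in vehicle cells, and was at least 11.3-fold higher by a floor of 3 UMIs over the WT group (adjusted p = 0.00677). Cpe, carboxypeptidase E, rose from 299.8 ± 39.9 CPM (SD, n = 4) to 1295 ± 195 CPM (SD, n = 4), with a fitted change of 1.89 (adjusted p = 0.00377). Plxna2, a semaphorin receptor, had a fitted change of 3.91 (adjusted p = 0.00856).

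Of the 120 lower genes, 45 (37.5%) had Rps or Rpl symbols, for ribosomal proteins or their pseudogenes, against 85 of all 4490 tested genes (1.89%), and 29 (24.2%) had Gm symbols of predicted genes, against 52 of all (1.16%). Rps28 was at 569, 754, 786 and 1884 CPM in WT units and 0, 100.4, 69.6 and 49.1 CPM in vehicle units, a fitted change of -4.05 (SE 0.52, adjusted p = 5.26e-05). Rps15a was at 2452, 2921, 2611 and 2772 CPM in WT and 345, 732, 501 and 614 CPM in vehicle, a fitted change of -2.44 (SE 0.37, adjusted p = 0.000577). The processed pseudogene Gm9800 went from 989, 1248, 1239 and 1364 CPM to 247, 273, 195 and 344 CPM (fitted change -2.38, adjusted p = 0.000577). Rpl3 and Rpl35 had fitted changes of -2.78 (adjusted p = 0.000657) and -2.47 (adjusted p = 0.00261). Reads of these multi-copy families can be divided between genes and pseudogenes, so the single values are uncertain.

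The genes that fell in endothelial cells were lower in other cells too. All 120 were lower in the remaining cells of the vehicle animals than in those of the WT animals, with a median log2 ratio of -1.50 there against a median fitted change of -2.30 in endothelial cells. Rps28, for example, was at 642 CPM in the remaining WT cells and 122 CPM in the remaining vehicle cells, and Rps15a at 1867 and 755 CPM. In the test of the difference described below 1 of the 120 passed, Rps26, with a lower change, where 0.29% of all genes had one. Without the 3 very large barcodes 16 of the 111 that could be tested passed, where 196 of all 3833 genes did, 69 with a lower change. That is a larger share of these genes than of all genes. The groups also differ in capture device, and the part this played in the falls was not tested.

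Haemoglobin genes, the products of red cells, moved with individual animals. Hbb-bs was at 13.5, 495, 14958 and 1451 CPM in WT units, at 0, 0, 41.7 and 24.6 CPM in vehicle units, and at 23428, 22.2, 71.7, 0 and 8276 CPM in vismodegib units. The fitted change between vehicle and WT was -7.87 (SE 1.92, adjusted p = 0.0175). All 3 tested genes of the erythroid list passed as lower, where 2.67% of all genes did. Each call was lost under some settings, 5 of 19 for Hbb-bs, 2 for Hba-a1 and 3 for Hba-a2. Without WT 4 the Hbb-bs change was -5.07 (adjusted p = 0.194), and without the cells that carried markers of another cell type it was -3.54 (adjusted p = 0.454). Hba-a2 had 0 UMIs in the vehicle cells and was at least 101-fold lower there by a floor of 3 UMIs over the group (adjusted p = 0.0113). Its WT level rested on WT 4, with 0, 353, 3943 and 953 CPM in the WT units, and without WT 4 the bound was 24.5-fold (adjusted p = 0.0758). The WT 1 unit was as low as the vehicle units, and 2 vismodegib units were high.

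The Cre transgene passed the same test among the higher genes. It was at 0, 23.6, 0 and 0 CPM in WT units and 197, 86.1, 543 and 0 CPM in vehicle units (fitted change 5.01, SE 1.16, adjusted p = 0.012). In the remaining cells it was at 1.39 CPM in WT and 2133 CPM in vehicle, and 76.8% of the remaining vehicle barcodes held a UMI. Of the vehicle endothelial cells 13 held a UMI, and of the vismodegib cells 15. The SmoM2-EYFP transcript had 0 UMIs in WT, 1 in vehicle and 27 in vismodegib endothelial cells, the last all in 2 cells. The Cre levels of the vehicle endothelial units lie below the 2133 CPM of the remaining vehicle cells. The part of free mRNA from tumor cells in the levels of both transcripts was not tested.

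A separate fit asked whether the change in endothelial cells differed from the change in the remaining cells of the same units. It called 83 of 4490 genes (1.85%), 70 with a higher change in endothelial cells (1.56%) and 13 with a lower one (0.29%). Slco1a4 had a difference of 7.71 (log2, adjusted p = 3.37e-07), while in the remaining cells its level went from 3.79 to 0.913 CPM. The difference was 4.96 for Ly6a (adjusted p = 0.0011), 3.18 for Timp3 (adjusted p = 0.000427), 3.07 for Ly6c1 (adjusted p = 0.0332), 2.62 for Sgms1 (adjusted p = 0.0379) and 2.38 for Ctla2a (adjusted p = 0.00433). For Slc2a1 it was 1.09 and did not pass (adjusted p = 0.351). The pan-endothelial list, which holds Ly6a, Ly6c1 and Ctla2a, was shifted as a whole. Its difference was above 0 for 28 of 29 genes, against 2047 of all 4490 genes. The median was 1.67, against -0.07 over all genes, while the median fitted change in endothelial cells was 0.68. The differences of single endothelial genes contain this common shift, and the part of endothelial mRNA in the remaining barcodes was not tested. Of the 34 higher genes, 13 passed this test. It called 196 without the 3 very large barcodes, with 127 higher and 69 lower, and with the default filter on low counts 75, with 45 higher and 30 lower. The count was 55 without WT 4, 53 without Vehicle 2, 42 without the WT pool and 47 without the vehicle pool.

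The same fit called barrier genes whose endothelial level alone did not pass. Slco1c1 had a difference of 2.54 (adjusted p = 0.00715) and Lsr, a protein of tricellular junctions, of 2.80 (adjusted p = 0.0169). Lef1, a transcription factor of the Wnt pathway, had a difference of 2.54 (adjusted p = 0.0437). In the remaining cells Slco1c1 went from 4.99 CPM in WT to 2.10 CPM in vehicle. Lsr went from 4.56 to 0.770 CPM there, and Lef1 from 3.66 to 0.938 CPM. No tested tight junction gene, Lsr among them, had an endothelial fitted change above 0.78. The Lsr difference thus rests mostly on the remaining cells. As for Lsr, the remaining cells differed more than the endothelial means did for other genes. Slc38a5 averaged 690.3 ± 218 CPM in WT and 476 ± 251 CPM in vehicle endothelial units (SD, n = 4 each) while the remaining cells went from 3.46 to 0.151 CPM, a difference of 3.53 (adjusted p = 0.00207). Tek was at 265 ± 41.4 CPM in WT and 255 ± 74.6 CPM in vehicle endothelial units (SD, n = 4 each) while the remaining cells went from 1.32 to 0.0955 CPM, a difference of 3.07 (adjusted p = 0.0218). Hes1, a transcriptional repressor downstream of Notch, was at a mean of 391 CPM in WT and 379 CPM in vehicle endothelial units while the remaining cells went from 30.8 to 143 CPM, a difference of -2.28 (adjusted p = 0.00244). The endothelial mRNA in the remaining barcodes enters these differences, and its part in them was not tested.

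**Figure D3:**
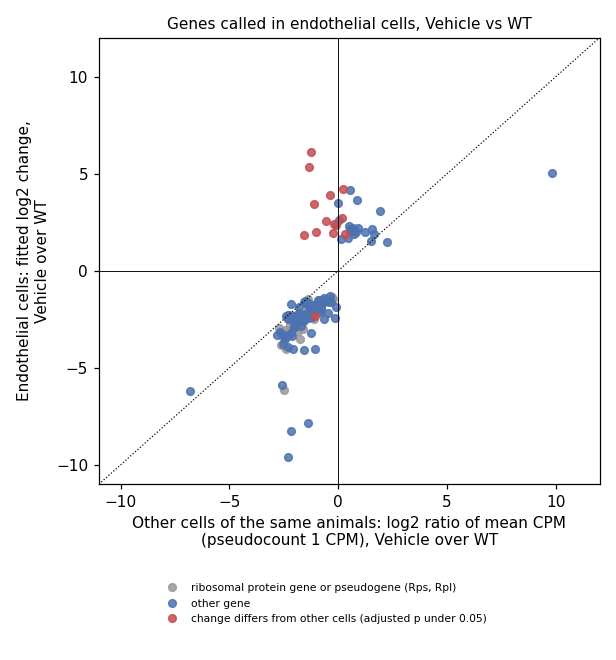
Each of the 154 genes called between vehicle and WT endothelial cells, with the log2 ratio in the remaining cells of the same animals (pseudocount 1 CPM) on the x axis and the fitted log2 change in endothelial cells on the y axis. The ribosomal protein genes (grey) lie below 0 on both axes, and of the 14 genes whose change differs from that of the remaining cells (red) all but Rps26 are higher in endothelial cells while their ratio in the remaining cells lies between -1.57 and 0.31.

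The other expression question was what vismodegib did to tumor endothelium. No gene passed the test, so 0 of 4490 were called (0.0%) by the edgeR quasi-likelihood test and 0 by DESeq2, with 347 and 240 genes at an unadjusted p under 0.05. Leaving out a vismodegib animal gave 1 to 8 calls, the most without Vismodegib 2, and leaving out a vehicle animal gave 0. The groups did not overlap for 2.61% of tested genes, 0.646% with vismodegib higher and 1.96% with vismodegib lower. The comparison uses the same vehicle units as the one above. Among the 5 lowest p-values in each direction, described by the rule for named genes, were Apln, Clec1a, Tubb6 and Ccna2 on the lower side and Ttr, Dbp, Gadd45g and Gas6 on the higher side.

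Apln, which encodes the apelin peptide of sprouting vessels, had the lowest p. It was at 203, 495, 293 and 325 CPM in WT units, 691, 832, 793 and 565 CPM in vehicle units, and 355, 333, 23.9, 33.3 and 44.8 CPM in vismodegib units. All 5 vismodegib units lay below all vehicle units, and 3 of them lay far below the WT units. The fitted change from vehicle was -2.58 (SE 0.53, unadjusted p = 3.78e-05, adjusted p = 0.102). Of the endothelial cells, 43.3% of WT, 38.7% of vehicle and 13.4% of vismodegib cells held a UMI, and with each cell thinned to 500 UMIs 18.3%, 21.0% and 5.97% did, against 0.040% to 0.068% of the remaining barcodes. Without the 3 very large barcodes Vismodegib 2 stood at 720 CPM, within the vehicle range, because the large barcode of that animal held 0 UMIs of Apln, and the fitted change was -1.95 (adjusted p = 0.214). Over the settings tried the change ranged from -3.42 to -1.75, and it passed the threshold under 8 of 21.

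The remaining cells held little Apln, at 0.934 CPM in vehicle and 1.46 CPM in vismodegib. The change in endothelial cells differed from theirs by -3.37 (SE 0.62, adjusted p = 0.00468), and by -2.84 without the 3 very large barcodes (adjusted p = 0.0282). The pan-endothelial genes were shifted the same way in this test, with 4 of 29 above 0 and a median of -1.10. Their median fitted change in endothelial cells was 0.04. The part of endothelial mRNA in the remaining barcodes was not tested, so this difference does not show that the endothelial level of Apln changed. Apln lies at chrX:48025146-48034853 on the minus strand. The 250 bases upstream of its RefSeq start (chrX:48034854-48035103, GRCm38.p6, minus strand) are shown as those of the gene with the lowest p under treatment, with the same motif in capitals.
Apln: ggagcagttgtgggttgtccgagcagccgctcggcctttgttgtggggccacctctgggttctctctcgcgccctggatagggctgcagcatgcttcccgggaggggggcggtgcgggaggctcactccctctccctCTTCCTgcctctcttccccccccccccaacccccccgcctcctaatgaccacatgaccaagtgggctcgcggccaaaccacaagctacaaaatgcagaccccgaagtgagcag

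Clec1a, Tubb6 and Ccna2 did not pass the test either. Clec1a, which was higher in vehicle than in WT units, was at 118, 44.4, 12, 133 and 56.0 CPM in vismodegib units, all below the 153 to 493 CPM of the vehicle units (fitted change -2.29, adjusted p = 0.149). Without the 3 very large barcodes Vismodegib 2 was at 0 CPM, Vismodegib 3 at 55.3 CPM and Vehicle 2 at 376 CPM, still with no overlap. Tubb6, a beta-tubulin, had a fitted change of -2.25 (adjusted p = 0.149), and of -1.45 without the 3 very large barcodes (adjusted p = 0.746). Ccna2, the cyclin of S phase and G2, was at 197, 86.1, 69.6 and 24.6 CPM in vehicle and 0, 0, 5.98, 0 and 11.2 CPM in vismodegib. That was 16 UMIs against 3, a pooled ratio of 0.0868 (exact 95% interval 0.0162 to 0.303, adjusted p = 0.188). Leaving out the 3 very large barcodes left 11 UMIs against 3, Vehicle 2 was at 34.2 CPM and Vismodegib 3 at 27.6 CPM, so the groups overlapped, and the ratio was 0.157 (exact 95% interval 0.0280 to 0.593).

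Of the genes on the higher side, Ttr, Dbp and Gas6 had smaller changes without the large barcodes. Ttr had a fitted change of 9.82 (adjusted p = 0.102), and the largest barcode held 99.5% of its UMIs in Vismodegib 3. Without the 3 barcodes its change was 4.16 (adjusted p = 0.214). Dbp, a circadian transcription factor, was at 49.3, 28.7, 13.9 and 73.7 CPM in vehicle and 177, 377, 245, 299.6 and 95.3 CPM in vismodegib, with no overlap (fitted change 2.73, adjusted p = 0.123), and its change without the 3 barcodes was 1.67 (adjusted p = 0.753). The groups then overlapped, with Vismodegib 3 at 27.6 CPM. Gas6, a ligand of the TAM receptor kinases, was at 98.7, 43.0, 13.9 and 0 CPM in vehicle and 118, 422, 490.2, 133 and 67.2 CPM in vismodegib (fitted change 3.20, adjusted p = 0.123). The large barcodes held 79 of its 82 UMIs in Vismodegib 3 (96.3%) and 89.5% in Vismodegib 2, and without the 3 barcodes its change was 1.72 (adjusted p = 0.777). Gadd45g, a gene of growth arrest and DNA damage, had a fitted change of 3.22 (adjusted p = 0.123). The large barcodes held 92.3% of its UMIs in Vismodegib 3 and all of them in Vismodegib 2, and without them these units stood at 138 and 0 CPM.

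Barrier genes showed no change past the threshold under treatment. Slco1a4 had a fitted change of 0.72 (adjusted p = 0.732) and Slc2a1 of 0.33 (adjusted p = 0.942), and the transport list had a median of 0.07. Slc2a1 was between 1287 and 1485 CPM in 4 vismodegib units and at 311 CPM in Vismodegib 3, which stood at 1106 CPM without its largest barcode. The sprouting list, with 16 of 16 above 0 between vehicle and WT, had 4 of 16 above 0 here, with a median of -0.64, and the basement membrane list had 4 of 17 above 0, with a median of -0.42. With the very large barcodes left out, the sprouting median was -0.39, with 3 of 15 above 0, and the basement membrane median was -0.11, with 5 of 16 above 0. Of all genes 2384 of 4490 lay above 0 in this comparison, and 1830 of 3833 without those barcodes. Both lists share the vehicle units between the comparisons, so a high vehicle value moves both. The lists also share Col4a1, Col4a2, Lamb1 and Nid2 with each other.

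No gene of the proliferation list passed the test between vismodegib and vehicle. The summed list was at 2073 to 4461 CPM in WT units, 1080 to 2639.6 CPM in vehicle units and 118 to 681.5 CPM in vismodegib units, with no overlap between vehicle and vismodegib. Mki67, the Ki-67 antigen, was at 474, 306, 226 and 693 CPM in WT units, 98.7, 215, 292 and 98.2 CPM in vehicle units and 0, 44.4, 102, 33.3 and 72.8 CPM in vismodegib units. Without their large barcodes Vehicle 2 was at 137 CPM, Vismodegib 2 at 96.0 CPM and Vismodegib 3 at 304 CPM of Mki67. The fitted change was above 0 for 0 of 12 tested genes, with a median of -1.64 against 0.04 over all genes. Without the 3 large barcodes the sums were 1080 to 2018 and 118 to 1465 CPM, the groups overlapped, and 2 of 11 tested genes lay above 0. With each cell thinned to 500 UMIs, 26 of 60 WT, 27 of 62 vehicle and 19 of 67 vismodegib cells held at least 1 UMI of the list. In the remaining cells the same sum was 5347 to 6101 CPM in vehicle and 3727 to 5769 CPM in vismodegib animals.

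The immediate early list holds genes that respond within minutes to stress and growth signals. Its sum was 1603 to 6548 CPM in WT units, 3242 to 5594 CPM in vehicle units and 6024 to 18909 CPM in vismodegib units. No gene of the list passed the test, while 18 of 18 tested genes had a fitted change above 0, with a median of 1.26, against 2384 of all 4490 genes and a median of 0.04. Fos was at 592, 215, 501 and 123 CPM in vehicle units and 887, 3484, 1082, 599 and 499 CPM in vismodegib units, which overlapped. Fos stood at 288 CPM in Vismodegib 2 and 2129 CPM in Vismodegib 3 without their large barcodes. Without the large barcodes the sums were 3388 to 5594 and 3120 to 13740 CPM and overlapped too. The highest value, in Vismodegib 2, came from its large barcode, without which that animal stood at 3120 CPM, while Vismodegib 3 went from 6187 to 13740 CPM without its own. Without these barcodes 16 of 17 tested genes lay above 0, with a median of 0.80. In the remaining cells the sum was 2947 to 4176 CPM in vehicle and 1787 to 3934 CPM in vismodegib animals.

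**Figure D4:**
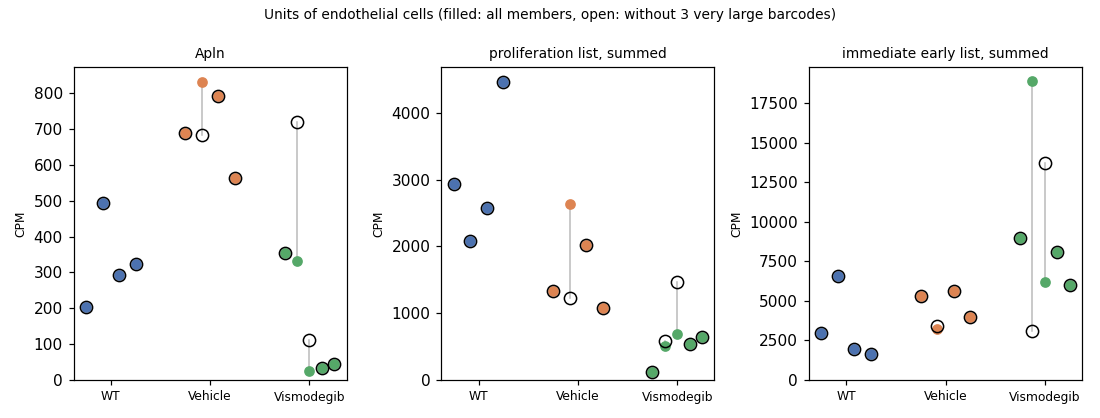
Level (CPM) in each unit of endothelial cells of Apln, of the summed proliferation list and of the summed immediate early list, with all cells (filled points) and without 3 very large barcodes (open circles, joined by grey lines). With all cells the vehicle and vismodegib units are apart in each panel, and without the 3 barcodes the ranges of the vehicle and vismodegib units overlap in each.

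The test of the difference between endothelial and remaining cells called 41 genes between vismodegib and vehicle (0.913%), 10 with a higher change in endothelial cells (0.223%) and 31 with a lower one (0.69%). Among the lower were Sparc, a matrix glycoprotein (-1.75, adjusted p = 0.00407), Car4, a carbonic anhydrase of the capillary surface (-2.25, adjusted p = 0.0309) and Ctla2a (-1.80, adjusted p = 0.0398). Among the higher were Gas6 (4.25, adjusted p = 0.00709), Hes1 (2.57, adjusted p = 0.00142) and Id1, an inhibitor of DNA binding downstream of BMP signaling (1.90, adjusted p = 0.00821). Without the 3 very large barcodes the difference was 2.99 for Gas6 (adjusted p = 0.0494), 2.07 for Hes1 (adjusted p = 0.00389), 1.37 for Id1 (adjusted p = 0.0388), -1.41 for Sparc (adjusted p = 0.00389) and -1.74 for Car4 (adjusted p = 0.0282), and for Ctla2a it was -1.33 and did not pass (adjusted p = 0.0597). For Hes1 and Id1 the level in the remaining cells went from 143 to 22.6 CPM and from 52.6 to 19.2 CPM. For Sparc, Car4 and Ctla2a it rose there, from 144 to 321, 4.10 to 11.7 and 4.56 to 6.02 CPM, and for Gas6 it fell from 60.4 to 24.7 CPM. The pan-endothelial list, which holds Ctla2a, had a difference above 0 for 4 of 29 genes, against 2254 of all 4490 genes. Its median difference was -1.10, while its median fitted change in endothelial cells was 0.04. No gene passed the test of the endothelial level itself, so these calls do not show that an endothelial level changed. The endothelial mRNA in the remaining barcodes enters these differences, and its part in them was not tested. The count was 11 without Vehicle 2, 24 without the vehicle pool and 9 without the cells that carried markers of another cell type. Each gene that was also called between vehicle and WT had a difference of the opposite sign there, such as Hes1 (-2.28), Sparc (1.72) and Ctla2a (2.38). Both comparisons use the same vehicle units, so a deviating vehicle value moves both.

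Arterial and venous markers were thinly measured, and capillary markers were not. Of 13 arterial genes 4 could be tested, of 10 venous genes 5 and of 8 capillary genes 8. None passed in either comparison, where 3.43% and 0% of all genes did. Without the 3 very large barcodes 1 of 3 arterial and 2 of 8 capillary genes were called higher and 1 of 3 venous genes lower between vehicle and WT, against 2.19% higher and 4.30% lower of all genes. The summed capillary list was at 3314 to 6259 CPM in WT units and 4786 to 10731 CPM in vehicle units. The summed arterial list was at 108 to 271 CPM in WT units, 488 to 1169 CPM in vehicle units and 287 to 23148 CPM in vismodegib units, the highest in Vismodegib 2. The very large barcode of that animal held UMIs of all 13 arterial genes. Chosen after their values were seen, Gkn3, Mgp and Fbln5 had 340, 308 and 182 UMIs in Vismodegib 2, all of them in that barcode. Without it the arterial sum of Vismodegib 2 was 336 CPM, and the median fitted change of the arterial list between vismodegib and vehicle went from 1.19 to -0.29. Nr2f2, the transcription factor of venous identity, averaged 185 ± 64.8 CPM in WT and 42.5 ± 50.7 CPM in vehicle units (SD, n = 4 each), with a fitted change of -1.93 that did not pass (adjusted p = 0.114). The median fitted change between vehicle and WT was 1.72 for the arterial, -0.77 for the venous and 0.73 for the capillary list. With so low an arterial sum in WT, most of the tested arterial genes could not pass the count filter on WT units alone. They passed through tumor units where they were higher, with or without the very large barcodes. The filter thus favored a rise over WT, and the arterial median and call do not show an arterial shift. Of 11 hedgehog pathway genes, the pathway that vismodegib blocks, 0 had enough UMIs in endothelial cells to be tested. Their sum was 47.1 to 108 CPM in WT units, 49.1 to 167 CPM in vehicle units and 0 to 114 CPM in vismodegib units. Without the 3 very large barcodes the vismodegib range was 0 to 221 CPM. A change in hedgehog targets was not detectable at this depth.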

How the data were processed

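Drop-seq libraries of 5 mice a group were made into 15 tables of UMI counts per gene and barcode, which the authors deposited. They had aligned the reads with STAR 5.4b to mm10, although the methods of the paper give another STAR version. The human genome hg19 was added for tumors (the tumor samples held human spike-in cells), and Cre and SmoM2/EYFP sequences were added. The gene annotation they counted against was not given in the sources used here. WT cells were captured with a PDMS and tumor cells with a glass device. Library totals were 2310474 to 5952919 UMIs in WT, 4307404 to 17708677 in vehicle and 2601001 to 10922460 in vismodegib.

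Of 51841 barcodes, 38351 passed the minimums of 500 UMIs and 500 genes, and the marker rule was applied to these, with no doublet caller, no clustering and no upper limit in the main analysis. Cell types other than endothelium were read from marker lists alone. UMI sums per unit were tested with edgeR 4.0.16 (R 4.3.3) by the quasi-likelihood test with TMM, filterByExpr with a minimum count of 3 and a minimum total of 15, and Benjamini-Hochberg adjustment over 4490 genes, with the 3 groups in one fit. The change relative to other cells was the interaction of cell class and group, with the unit as a block. DESeq2 1.42.0 was the alternative. Shares were compared per animal by exact permutation (scipy 1.17.1, two-sided). The labels name each library as a mouse of its own, and p-values measure the spread between these mice or pools.

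The genes named were those of the rule, the 10 with the largest called rise and fall at a mean of at least 150 CPM and without overlap (with fewer than 3 calls, the 5 smallest p in each direction), called list members, up to 4 of the most abundant members of each list, and the 15 most enriched genes; some genes that met this rule are not reported here. The members and the 33 gene lists were chosen with earlier results of these data known. On simulated counts for 4498 genes, the vehicle and WT fit recovered 35.6% of 4-fold and 1.01% of 2-fold changes, and the vismodegib and vehicle fit 57.9% and 9.68%. Intervals cover counting error only.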

Additional observations from a re-analysis of the deposited data

Results flagged for a closer look

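Single units stood apart from their group by Dixon's criterion in 10 of 92 tests, of which chance alone gives about 1 in 20. In Vismodegib 3, whose sum rests on 1 very large barcode, Slc2a1 was low at 311 CPM (1106 CPM without that barcode), while Ttr at 44322 CPM and Gadd45g at 389 CPM were high. Ctla2a stood at 12087 CPM in Vehicle 1, Hba-a1 at 13.9 CPM in Vehicle 5 (1 UMI, against 0 in the other vehicle units, which meets the criterion by construction), and Gm9800 at 433 CPM in Vismodegib 4. Among WT units, Igfbp3 stood at 118 CPM in WT 2, Hbb-bs at 14958 CPM in WT 4, and Rps28 at 1884 CPM and Rpl35 at 1061 CPM in the pool of WT 3 and WT 5.

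The change in endothelial cells differed from that in the remaining cells, by the edgeR interaction test, for 83 genes between vehicle and WT and for 41 between vismodegib and vehicle. Both comparisons use the same vehicle units. Endothelial mRNA in the remaining barcodes enters the differences, and its part was not tested. Between vehicle and WT the difference on the log2 scale was 7.71 for Slco1a4, 4.96 for Ly6a, 3.18 for Timp3, 3.07 for Ly6c1, 2.62 for Sgms1 and 2.38 for Ctla2a. Between vismodegib and vehicle it was 4.25 for Gas6, -3.37 for Apln and -1.80 for Ctla2a. The large barcodes held 96.3% of the Gas6 UMIs of Vismodegib 3 and 89.5% of those of Vismodegib 2, and without the 3 largest barcodes these differences were 2.99, -2.84 and -1.33, the last with an adjusted p of 0.0597.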

How the results depend on the processing

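The lower share of endothelial cells in vehicle tumors than in WT kept its direction and its side of the threshold under every alternative but the replicate block, which kept the difference of -0.440 percentage points at an exact permutation p of 0.0625, the smallest that 5 pairs can give. Leaving out single animals gave differences of -0.496 to -0.367. The difference between vismodegib and vehicle ranged from 0.152 to 0.414 when single animals were left out, and only leaving out Vismodegib 4 took it past the threshold. Deviations of animals of the same number from their group means had correlations of -0.129 to 0.0826 over 3820 genes. With 5 to 25 endothelial cells per animal, counting noise could hide a shared deviation, so this does not exclude that the numbers pair animals. With every animal a unit the counts of calls were 167 and 7 for expression and 130 and 48 for the differences from the remaining cells. With the replicate number as a block on top of that, 158 genes were called between vehicle and WT and 11 between vismodegib and vehicle, and the differences from the remaining cells were 125 and 63.

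The 154 calls between vehicle and WT became 101 without cells carrying markers of other types and 249 without the 3 very large barcodes, an alternative chosen after the data were seen, and 63 to 132 when animals were left out. The 0 calls between vismodegib and vehicle became 155 without a filter on low counts, 12 without cells carrying other markers, 7 with at least 4 rule genes, 2 with cells thinned to at most 3000 UMIs (chosen after the data were seen) and 0 to 8 when animals were left out. The 83 differences between vehicle and WT became 44 without cells carrying other markers, 196 without the large barcodes and 42 to 70 when animals were left out. The 41 between vismodegib and vehicle became 18 with the default filter, 71 without a filter, 9 without cells carrying other markers and 11 to 52 when animals were left out. The cause of these shifts was not tested. For 23 named genes in the comparison of vehicle with WT, 435 of 435 refitted changes kept their direction and 68 lost the call, and for 8 named genes in the comparison of vismodegib with vehicle 149 of 149 kept it and 29 passed the threshold. Leaving out either animal of a pool took out the whole pool, since the other had under 10 cells, and was counted once. At this depth 1.01% of simulated 2-fold and 35.6% of 4-fold changes were recovered between vehicle and WT, and 9.68% and 57.9% between vismodegib and vehicle, so a 2-fold change would mostly go undetected.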

Other observations

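The remaining cells of each animal express ligands that act on vessels, and their levels are given here as values with no test. Angpt1, the angiopoietin that keeps vessels quiescent through Tek, averaged 129 ± 34.1 CPM in WT, 32.3 ± 5.10 CPM in vehicle and 37.3 ± 9.74 CPM in vismodegib animals (SD, n = 5 each). Vegfa averaged 12.9, 16.3 and 18.5 CPM, and Pgf, the placental growth factor, 20.8, 41.1 and 19.7 CPM in the same order. Cxcl12, the chemokine bound by Ackr3, averaged 106, 35.0 and 78.1 CPM, and Tgfb2 77.4, 128 and 76.1 CPM. Igf2, an insulin-like growth factor that meninges and vessels produce, averaged 203, 48.3 and 125 CPM.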
